A study of Mus musculus with 8 samples.

Results

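The 6 genes described here, Asns, Gpt2, Got1, Got2, Glul and Glud1, encode enzymes that make or interconvert asparagine, alanine, aspartate, glutamate and glutamine. They were taken by name from the 31053 genes counted in every library, and all 6 were found. The rule names the genes and uses no measured value. They were followed through the osteoblasts (OBs) of newborn mouse skull bone and through the other cells isolated with them.

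Asparagine synthetase (Asns) moves the amide nitrogen of glutamine onto aspartate. Alanine aminotransferase 2 (Gpt2) and the mitochondrial aspartate aminotransferase Got2 work in mitochondria, while Got1 is the cytosolic aspartate aminotransferase and forms the malate-aspartate shuttle together with Got2. Glutamine synthetase (Glul) makes glutamine from glutamate and ammonia, and glutamate dehydrogenase (Glud1) converts glutamate to α-ketoglutarate. Asns is a well-known target of ATF4, the main transcription factor of the integrated stress response (ISR), which reduces general translation and raises amino acid synthesis and transport. Osteoblasts secrete large amounts of type I collagen and therefore use amino acids heavily.

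Single cells from parietal bones of pups at postnatal days 4 to 5 were profiled by droplet-based RNA sequencing with unique molecular identifiers (UMIs, tags that mark single captured mRNA molecules). There were 4 wild type (WT) libraries, S1, S2, S5 and S6, and 4 libraries from pups heterozygous (Het) for G610C, a replacement of a glycine by cysteine in the Col1a2 product, pro-α2(I), which models osteogenesis imperfecta, a brittle bone disorder. The labels give all samples the strain B6.129(FVB)-Col1a2tm1Mcbr/J, and the animals were kept on a C57BL/6J background. The Col1a2 allele is in the germline, and the labels name no treatment in either group. Each library pooled cells of up to 5 pups of 1 genotype, so the library, and not the cell, was the replicate. S1 to S4 were made with kit version 3 and S5 to S8 with kit version 3.1, with 2 WT and 2 Het libraries per kit.

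After quality control 46420 of 68625 barcodes remained, 25697 of them WT and 20723 Het. A cell was taken as an OB if it held 10 or more Col1a1 UMIs and if 2 or more of the 3 genes Runx2, Sp7 and Ibsp had 2 or more UMIs each. Col1a1 below 0.75% of the UMIs of a cell marked early OBs (eOBs, 379 cells), 0.75% to 3.5% differentiating OBs (dOBs, 1217 cells), and more than 3.5% mature OBs (mOBs, 1075 cells). The mOBs numbered 73, 77, 299 and 208 in the WT libraries S1, S2, S5 and S6 and 79, 192, 105 and 42 in the Het libraries S3, S4, S7 and S8. The levels below are given in UPM, the UMIs of a gene per 1000000 UMIs summed over the cells of a subpopulation in a library. The sums held 664702 to 4805858 UMIs in mOBs and 204130 to 1296848 in eOBs, so low values are less precise in eOBs. The counts come from the 3′ ends of mRNAs and are not scaled by length, so levels of different genes are not compared.

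Several libraries stood apart. Haematopoietic-like cells made up 51.9% of the cells in S1 and 42.4% in S2 against 2.79% to 9.03% in the other 6, and erythroid-like cells made up 30.1% in S2. From 1 to 24 barcodes were shared by a pair of libraries, at most 0.558% of the smaller one. The osteoblast markers Alpl, Bglap, Sparc, Spp1, Ifitm5 and Dmp1, which did not enter the selection, were all detected in the mOBs of every library. Their summed share of mOB UMIs was 4.48% to 7.54% in WT and 3.37% to 4.35% in Het. The 6 smooth muscle or pericyte markers summed to 0.00672% to 0.0219% in WT mOBs, where Myh11 was at 0, and to 0.0221% to 0.0450% in Het mOBs. The 11 haematopoietic markers summed to 0.000957% to 0.0671% in WT, with the highest values in S1 and S2, and to 0.000150% to 0.0164% in Het, where Cd33 and Cd3e were at 0. All collagen genes together took 16.0% to 21.4% of mOB UMIs in WT and 12.1% to 16.4% in Het. The part of these differences in the results below was not tested, except where values without the affected cells or UMIs are given.

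The upstream sequences of Asns, Got1 and Gpt2, the members with the highest Het to WT ratio in mOBs (given below), are shown first. The 250 bases before the RefSeq start were found for all 6 members (RefSeq, build GRCm38.p6), and are written 5′ to 3′ on the strand of the gene. They were searched for TGATGNAA on both strands (TTNCATCA on the reverse), the core of the C/EBP-ATF response element that ATF4 is known to bind. Capitals mark a match. They lie at chr6:7693210-7693459 (minus strand) for Asns, chr19:43524606-43524855 (minus strand) for Got1 and chr8:85492326-85492575 (plus strand) for Gpt2.
Asns: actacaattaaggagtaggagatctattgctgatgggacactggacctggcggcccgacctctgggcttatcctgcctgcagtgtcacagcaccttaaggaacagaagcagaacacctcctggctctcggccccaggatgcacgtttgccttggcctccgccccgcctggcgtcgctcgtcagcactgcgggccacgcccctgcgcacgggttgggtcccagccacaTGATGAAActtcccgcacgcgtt
Got1: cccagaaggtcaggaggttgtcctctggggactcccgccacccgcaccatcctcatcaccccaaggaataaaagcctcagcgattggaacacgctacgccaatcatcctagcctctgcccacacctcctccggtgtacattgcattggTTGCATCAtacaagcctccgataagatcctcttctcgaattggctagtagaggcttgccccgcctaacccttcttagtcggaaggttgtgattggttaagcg
Gpt2: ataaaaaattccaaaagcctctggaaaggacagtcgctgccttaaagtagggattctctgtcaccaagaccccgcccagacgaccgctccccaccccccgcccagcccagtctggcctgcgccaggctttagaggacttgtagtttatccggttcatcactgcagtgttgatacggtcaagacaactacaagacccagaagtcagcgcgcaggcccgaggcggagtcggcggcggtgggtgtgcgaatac

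The Asns match, TGATGAAA, stands 23 to 16 bases before the RefSeq start. The GENCODE model of Asns begins 45 bases further upstream, so that the match lies inside that gene model. The Got1 match, TTGCATCA, reads on the reverse strand 102 to 95 bases before the start. The Gpt2, Got2, Glul and Glud1 windows held no match. A match was therefore present for 2 of the 6 members, 33.3%, against 1134 of 32851 RefSeq windows of the same length, 3.45%. In the 5 lists of related genes described below, a match was held by 0 of 30 windows of further enzymes, 0 of 12 of the shuttle and mitochondrial carriers, 1 of 8 of the tRNA synthetases, 2 of 10 of the regulators and 1 of 15 of the plasma membrane carriers. These matches are letters in a window and not measured binding sites.

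In Het mOBs Asns mRNA was 5.06-fold higher than in WT mOBs, and it was the only one of the 6 genes called changed by edgeR. DESeq2, run as an alternative, called 3, Asns, Gpt2 and Got1, and 1.35% of all tested genes. Asns lies on chromosome 6 from 7675169 to 7693254 on the minus strand of GRCm38 (ENSMUSG00000029752). Its mOB level was 34.2, 36.9, 24.7 and 24.3 UPM in the WT libraries S1, S2, S5 and S6. In the Het libraries S3, S4, S7 and S8 it was 276, 237, 64.5 and 137. The lowest Het library thus lay above the highest WT library, and the Het libraries of kit version 3 were higher than those of version 3.1. These levels rested on 57, 51, 110 and 117 UMIs in WT and 415, 678, 124 and 91 UMIs in Het. The means were 30.0 ± 6.45 in WT and 179 ± 96.2 in Het (SD, n = 4 libraries each).

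The log2 fold change of Asns was 2.34 with a standard error (SE) of 0.24 (edgeR quasi-likelihood test with kit version in the model, Benjamini-Hochberg adjusted p = 0.00144). It had the rank 2 by p among 9623 tested genes and rank 2 by fold change among the 51 called genes, which were 0.53% of those tested. Of all tested genes 0.374% were called higher in Het, and 1.85% had all 4 Het libraries above all 4 WT libraries. Within kit version 3 the Het to WT difference in mean log2 CPM was 2.76, and within version 3.1 it was 1.85. Without OBs that carried at least 3 markers of another cell type the log2 fold change was 2.36 (edgeR adjusted p = 0.000649). It remained called without any 1 library (adjusted p from 1.93e-06 to 0.0163). Without the kit term the log2 fold change was 2.59 but the adjusted p was 0.99999.

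**Figure D1:**
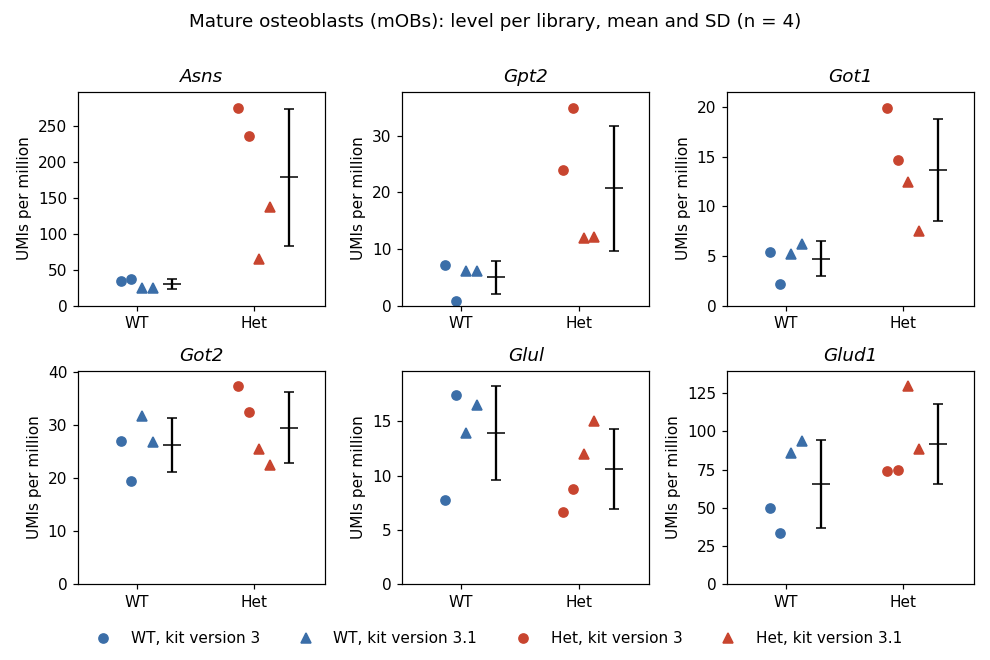
Levels of the 6 genes in mOBs, in UPM on linear axes that start at 0. Each point is 1 library, with shapes for the kit versions and bars for the group means with the SD (n = 4 WT and 4 Het). The Asns, Gpt2 and Got1 levels of all Het libraries lie above all WT libraries, for example 64.5 to 276 against 24.3 to 36.9 for Asns, while Got2, Glul and Glud1 overlap.

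Gpt2 and Got1 were also higher in every Het library than in any WT library, but neither passed the adjusted threshold in edgeR. In DESeq2 both passed it, with adjusted p values of 0.0122 and 0.0385. Gpt2 (ENSMUSG00000031700, chromosome 8, 85492576 to 85527560, plus strand) had 7.20, 0.723, 6.07 and 6.03 UPM in WT mOBs of S1, S2, S5 and S6. The Het libraries S3, S4, S7 and S8 had 23.98, 35.0, 11.96 and 12.04. The lowest WT value, in S2, rested on 1 UMI, and the Het values on 36, 100, 23 and 8 UMIs. The log2 fold change was 1.73 with an SE of 0.39, a 3.32-fold difference (edgeR adjusted p = 0.0788). In the fits that left out 1 library the edgeR adjusted p ran from 0.0399 (without Het library S7) to 0.286. Within kit versions 3 and 3.1 the log2 difference was 3.101 and 0.846.

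Got1 (ENSMUSG00000025190, chromosome 19, 43499752 to 43524605, minus strand) had 5.40, 2.17, 5.17 and 6.24 UPM in WT mOBs. In Het mOBs it had 19.98, 14.7, 12.5 and 7.52 in S3, S4, S7 and S8. The gap between the highest WT library and the lowest Het library, S8, was small, and the S8 value rested on 5 UMIs. This was a log2 fold change of 1.34 with an SE of 0.31, or 2.54-fold (edgeR adjusted p = 0.0852). In the fits that left out 1 library the edgeR adjusted p ran from 0.0481 (without Het library S8) to 0.257. Within kit versions 3 and 3.1 the log2 difference was 2.04 and 0.64. A gene entered the test with at least 5.57 UPM in 4 libraries. For Gpt2 this held in 3 WT and 4 Het libraries and for Got1 in 1 WT and 4 Het libraries, so both entered through the Het group, and no p value of theirs, main or alternative, is taken as support.

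Got2, the mitochondrial partner of Got1, overlapped between the groups. Got2 (ENSMUSG00000031672, chromosome 8, 95864134 to 95888547, minus strand) had 27.0, 19.5, 31.7 and 26.8 UPM in WT mOBs and 37.3, 32.6, 25.5 and 22.6 in Het mOBs. Its log2 fold change was 0.08 with an SE of 0.19 (edgeR adjusted p = 0.931), and the sign differed between the kits, 0.53 in version 3 and -0.32 in version 3.1. A processed pseudogene of Got2 on chromosome 5 and one of Glud1 on chromosome 7 are annotated but were not among the counted genes, so reads shared with these copies make both genes less certain.

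The 2 ammonia-handling enzymes, Glul and Glud1, did not pass the test. Glul (ENSMUSG00000026473, chromosome 1, 153899944 to 153909723, plus strand) had 7.80, 17.4, 13.9 and 16.4 UPM in WT mOBs and 6.66, 8.75, 11.96 and 15.0 in Het mOBs. The log2 fold change was -0.48 with an SE of 0.27 (edgeR adjusted p = 0.550). Glud1 (ENSMUSG00000021794, chromosome 14, 34310727 to 34345265, plus strand) had 49.8, 33.3, 85.9 and 93.4 in WT and 73.9, 74.6, 129 and 88.8 in Het. Its log2 fold change was 0.48 with an SE of 0.15 (edgeR adjusted p = 0.222). In both genes the ranges of the groups overlapped. Glud1 was lower in S1 and S2 than in the other 6 libraries, and its log2 difference was 0.79 within kit version 3 and 0.21 within version 3.1. Glul overlaps the counted gene Teddm2 on the opposite strand.

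In dOBs none of the 5 tested members was called. Gpt2 was below the filter there, with 4.28 to 9.33 UPM in all 8 libraries. Of 9857 tested genes 0.0101% were called by edgeR, 740 (7.51%) had an unadjusted p under 0.05, and DESeq2 called 4 (0.0406%), none of them a member. Asns, the only member with an unadjusted p under 0.05, had 13.8, 36.3, 30.3 and 25.7 UPM in WT dOBs and 79.8, 83.9, 30.0 and 41.7 in Het dOBs. Libraries S3 and S4 were above all others, while S7 was within the WT range. The log2 fold change was 0.87 with an SE of 0.30 (edgeR adjusted p = 0.582), 1.83 within kit version 3 and 0.30 within version 3.1. Got1, Got2, Glul and Glud1 had log2 fold changes from -0.41 to 0.33.

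In eOBs Asns ranged from 12.9 to 18.7 UPM in WT and from 16.1 to 39.2 in Het, and these values rested on 4 to 24 UMIs. Its log2 fold change was 0.37 with an SE of 0.36 (edgeR adjusted p = 0.9999). Gpt2 and Got1 were below the filter. Gpt2 had 0 of 241587 UMIs in eOBs of S3, which allows up to 12.4 UPM (3 UMIs, counting error only). Of the 4 members tested none was called, and none had an unadjusted p under 0.05. Called genes were 0% of 8118 tested in eOBs, with 310 (3.82%) at an unadjusted p under 0.05 and 3 (0.037%) called by DESeq2.

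In the other cells of the same libraries the 6 members were all tested and none was called. Asns had 37.5, 74.5, 26.7 and 22.4 UPM in WT and 33.5, 33.5, 22.0 and 24.9 in Het. The highest level stood in S2, where erythroid-like cells were frequent. Between the groups the log2 fold change was -0.57 with an SE of 0.33 (edgeR adjusted p = 0.273). The log2 fold change of Gpt2 was 0.57 with an SE of 0.25 (edgeR adjusted p = 0.200), and those of the other 4 were between -0.37 and -0.11. Here too 0% of 16502 tested genes were called by edgeR, while 4234 (25.7%) had an unadjusted p under 0.05 and DESeq2 called 1947 (11.8%), no member among them.

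**Figure D2:**
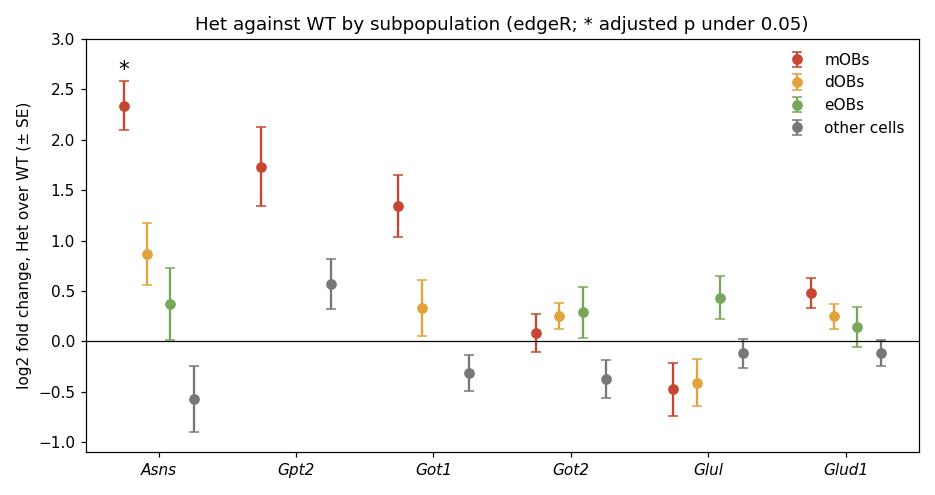
Log2 fold change (Het against WT) with its SE for each gene in eOBs, dOBs, mOBs and other cells, from edgeR fits with the kit version in the model. The Asns value runs from -0.57 in other cells over 0.37 in eOBs and 0.87 in dOBs to 2.34 in mOBs, where it alone is called. Gpt2 is not drawn in eOBs and dOBs and Got1 not in eOBs, since they were below the filter.

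The difference of the Het effect between cell groups was tested directly, with both subpopulations in one fit. For Asns the effect in mOBs exceeded that in other cells by 2.79 on the log2 scale, with an SE of 0.38 (edgeR adjusted p = 0.0188). It was the only member called in that comparison, in which 0.171% of 15173 tested genes were called. The call was lost without WT library S1 (adjusted p = 0.134) and without Het library S4 (adjusted p = 0.0760). In other cells the Het to WT difference of Asns in mean log2 CPM was -0.949 within kit version 3 and -0.0437 within version 3.1. The other cells of S1 and S2 differed in cell types from those of the remaining libraries, and the part of this was not tested. The difference between mOBs and dOBs was 1.26 with an SE of 0.26 (edgeR adjusted p = 0.199), and between mOBs and eOBs it was 1.80 with an SE of 0.34 (edgeR adjusted p = 0.141). In both of these comparisons 0 members were called, 3 had an unadjusted p under 0.05, and 0% of genes were called. Over all genes 779 (7.36%) and 525 (5%) had an unadjusted p under 0.05, and DESeq2 called 7 (0.0662%) and 2 (0.0191%), none of them a member.

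For Gpt2 the effect in mOBs exceeded that in other cells by 1.17 (edgeR adjusted p = 0.186), that in dOBs by 1.29 (adjusted p = 0.485) and that in eOBs by 2.43 (adjusted p = 0.733). The Got1 effect exceeded that in other cells by 1.63 (edgeR adjusted p = 0.112). The 3 comparisons share the mOB libraries and are therefore not independent. None of these Gpt2 and Got1 differences passed the threshold.

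Across the stages of OB maturation the members fell into different patterns. The stages are defined by Col1a1, which takes a larger share of the UMIs in mOBs, so any other gene loses some of its share there. The log2 ratio of mOB to eOB levels was taken within each library with 10 UPM added to both. Its mean was tested over the 8 libraries by a two-sided exact sign-flip permutation test, 1 test for each of the 6 genes, with 0.00781 as the smallest possible p. Asns was higher in mOBs than in eOBs in 8 of 8 libraries, by 1.49 on average (exact permutation p = 0.00781, n = 8). The size depended on the 10 UPM added, with 0.635 when 100 UPM and 1.81 when 1 UPM were added. In WT the ratio was 0.61 ± 0.26 and in Het 2.36 ± 0.79 (SD, n = 4 each). The mean level over all libraries was 19.8 UPM in eOBs, 42.7 in dOBs and 104 in mOBs.

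Glul went the opposite way. It was lower in mOBs than in eOBs in 8 of 8 libraries, with a mean log2 ratio of -1.31 (exact permutation p = 0.00781, n = 8), which was -0.37 with 100 UPM and -1.83 with 1 UPM added. Its mean level was 45.3 in eOBs, 23.1 in dOBs and 12.2 UPM in mOBs, and the dOB level was above the mOB level in each library. Got2 was higher in mOBs in only 1 of 8 libraries, with a mean log2 ratio of -0.49 (exact permutation p = 0.0156, n = 8), which was -0.17 with 100 UPM added. The Gpt2 ratio was 0.43 (exact permutation p = 0.234, n = 8), and 0.088 and 0.86 with 100 and 1 UPM added. It was positive in 4 of 4 Het libraries, on average 1.16, and in 1 of 4 WT libraries, on average -0.30. Got1 and Glud1 had ratios of -0.01 (exact permutation p = 0.977, n = 8) and -0.17 (exact permutation p = 0.109, n = 8).

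To ask how the Het effect followed Col1a1, the log2 ratio of the mOB level to the level in eOBs and dOBs together was compared between the genotypes (two-sided exact permutation test over libraries, 6 tests, smallest possible p 0.0286). For Asns this ratio was 0.89, 0.26, -0.14 and 0.02 in the WT libraries S1, S2, S5 and S6 and 1.88, 1.51, 1.03 and 1.62 in the Het libraries S3, S4, S7 and S8. Each Het library was above each WT library, although S1 came close to S7. The difference was 1.25 (exact permutation p = 0.0286, n = 4 and 4), 1.12 within kit version 3 and 1.38 within version 3.1. With collagen UMIs left out of the totals it was 1.22 (exact permutation p = 0.0571, n = 4 and 4). For Gpt2 the difference was 1.09 (exact permutation p = 0.0286, n = 4 and 4), 1.66 and 0.52 within the kits. Its size depended on the 10 UPM added, with 0.213 when 100 UPM were added and 2.15 when 1 UPM was added, while that of Asns was 0.743 and 1.32. Got1 differed by 0.44 (exact permutation p = 0.0857, n = 4 and 4). Got2, Glul and Glud1 differed by -0.08, -0.09 and 0.15, with exact permutation p values of 0.714, 0.743 and 0.514.

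In narrower ranges of Col1a1 the WT mean of Asns was between 16.0 and 32.4 UPM. The Het mean was 23.5 below 0.75% Col1a1, 40.9 from 0.75% to 1.5%, 68.5 from 1.5% to 3.5%, 185 from 3.5% to 5%, 205 from 5% to 8% and 246 above 8%. Ranges with fewer than 20 cells in a library were left out, so the last mean holds only S3 and S4, while those from 3.5% to 8% hold S3, S4 and S7. The WT means from 3.5% to 8% hold only S5 and S6, both of kit version 3.1. Of the Het libraries left out above 8%, S7 had 40.7 UPM in 18 cells, inside the 23.5 to 42.8 of the WT libraries, and S8 had 226 in 16 cells. S8, left out from 3.5% to 8%, had 75.4 in 18 cells from 3.5% to 5% and 111 in 8 cells from 5% to 8%. From 3.5% to 5% S3 had 280, S4 had 224 and S7 had 52.8. Above 8%, where S7 is not in the mean, S3 had 245 and S4 had 247. S7 reached 88.9 from 5% to 8%, where S3 had 294 and S4 had 232. The kit version 3 Het libraries were thus higher than S7 in this range. For Gpt2 above 8% Col1a1 the Het mean was 23.1 and the WT mean 4.96, and for Got1 they were 19.4 and 4.14, again with only S3 and S4 in the Het means. The left-out libraries S7 and S8 had 15.3 and 8.23 for Gpt2, where the WT libraries reached 7.54, and 5.09 and 16.5 for Got1, where they reached 6.19, so S7 was inside the WT range of Got1. These 4 values rested on 1 to 4 UMIs. The median Col1a1 share of mOBs was 10.2% to 11.6% in S1 and S2 and 4.87% to 7.71% in the other 6 libraries, so the libraries with the highest Asns were not those with the highest Col1a1 share.

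**Figure D3:**
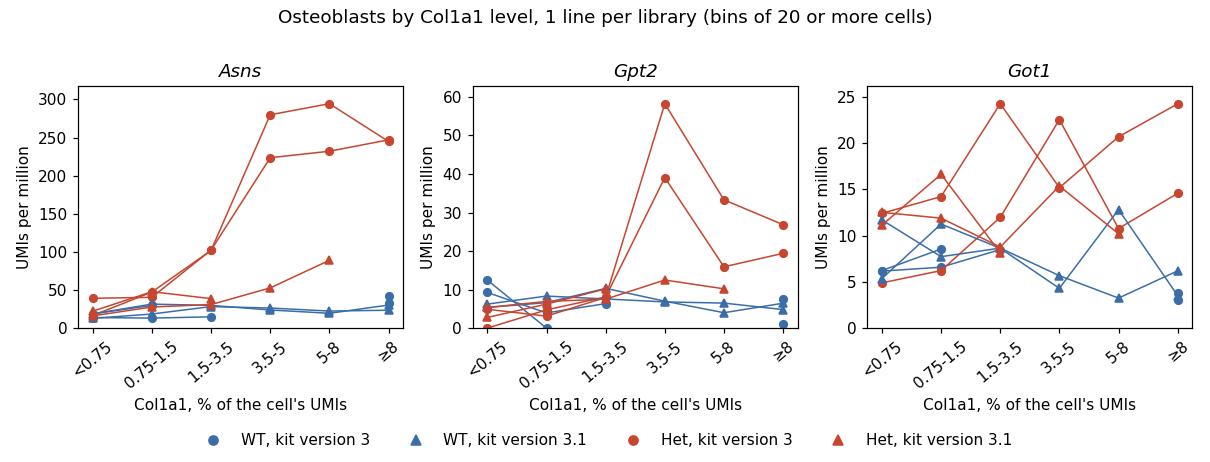
Level of Asns, Gpt2 and Got1 (UPM) in OBs grouped by the percent of UMIs from Col1a1, 1 line per library, coloured by genotype. Ranges with fewer than 20 cells are not drawn and lines break there. Asns reaches 294 in S3 and 232 in S4 at 5% to 8% Col1a1 and 88.9 in S7, while the WT means stay between 16.0 and 32.4.

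The higher level came with more mOBs in which the mRNA was detected. At a fixed depth the share of cells with a UMI follows largely from the level of a gene. These shares and their p values are therefore no separate evidence of a Het difference. Each cell was thinned to 4000 UMIs to make depths equal, which left out 26 WT and 19 Het mOBs. Asns was then found in 10.96%, 9.21%, 9.29% and 7.43% of WT mOBs in S1, S2, S5 and S6, and in 63.3%, 55.7%, 16.0% and 29.7% of Het mOBs in S3, S4, S7 and S8. The group means were 9.22% ± 1.44 and 41.2% ± 22.1 (SD, n = 4 each), a difference of 31.97 percentage points (two-sided exact permutation p = 0.0286, n = 4 and 4). Within the kits the difference was 49.4 and 14.5 points. In all mOBs without thinning, 2 or more Asns UMIs were found in 16.4%, 18.2%, 6.69% and 11.5% of WT and 82.3%, 67.7%, 23.8% and 42.9% of Het cells. In S3 and S4 most mOBs carried at least a pair of Asns UMIs, and S7 had the lowest share among the Het libraries. Haematopoietic-like cells, which have their own Asns mRNA, gave 2.91% to 8.72% at the same thinned depth, with median depths of 3174 to 15649.5 UMIs per cell before thinning against 12348 to 21116 in mOBs. The WT shares of mOBs overlap this range, and the Het shares are above it.

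Gpt2 was found in 1.80% ± 0.79 of WT and 8.04% ± 2.42 of Het mOBs at 4000 UMIs (two-sided exact permutation p = 0.0286, n = 4 and 4), and haematopoietic-like cells gave 0.793% to 4.46%. Got1 was found in 1.04% ± 0.76 and 5.43% ± 2.80 (exact permutation p = 0.0286, n = 4 and 4). The Got1 shares of mOBs are at or below the 7.14% to 18.8% of haematopoietic-like cells, a class in which Got1 is abundant, so these cells give no background level for it. At 2000 UMIs the Got1 difference was 0.606 points (exact permutation p = 0.886, n = 4 and 4). The shares of Got2, Glul and Glud1 differed by -0.69, -1.91 and 8.05 points, with exact permutation p values of 0.8, 0.343 and 0.286 (6 tests).

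**Figure D4:**
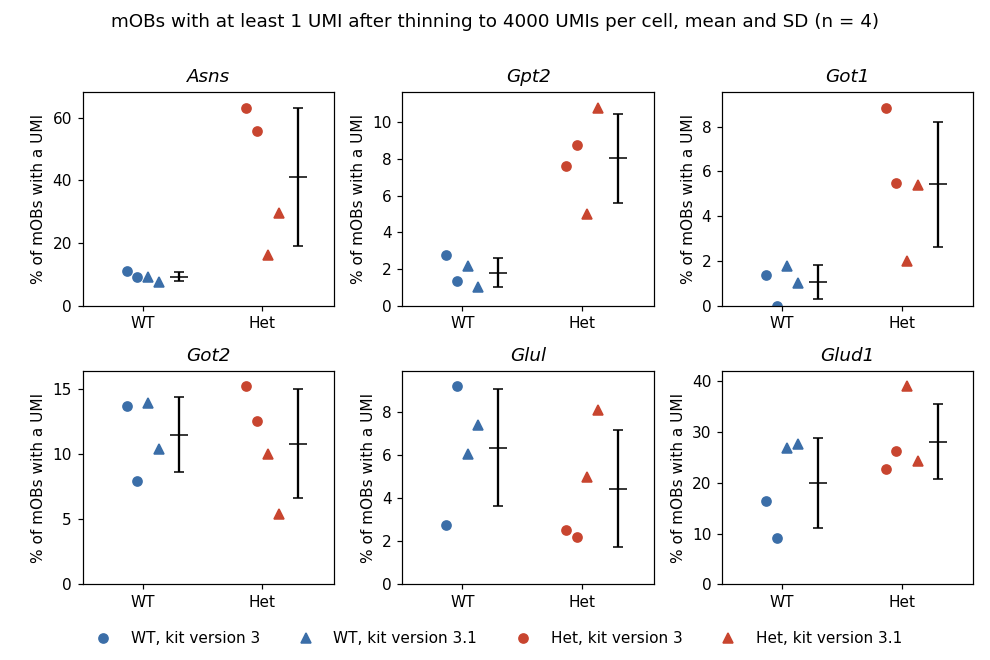
Percent of mOBs with at least 1 UMI of each gene after thinning to 4000 UMIs per cell, 1 point per library. Bars give the group means with the SD over the libraries of a group. The Asns share is 16.0% to 63.3% in Het and 7.43% to 10.96% in WT.

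Among all cell groups, mOBs had the lowest mean levels of Glul and Got2. Cells outside the OB rule were put into classes by their markers. Asns was highest in erythroid-like cells, at 127 ± 20.8 UPM (SD, n = 6 libraries), followed by mOBs with 104 ± 102 (n = 8). Their order differed by genotype. In all 4 WT libraries erythroid-like cells, at 124 to 150 UPM, were above mOBs, at 24.3 to 36.9, while in both Het libraries with such cells mOBs were above them, with 276 against 88.6 in S3 and 237 against 133 in S4. In WT alone the mOB mean, 30.0, was near those of chondrocyte-like (28.2) and dOB cells (26.5) and below that of unclassed cells (42.6). The lowest Asns levels were in fibroblast-like cells, 10.2 ± 1.42 (n = 3, 1 WT and 2 Het), and muscle or pericyte-like cells, 15.0 ± 10.1 (n = 8). Their order was not the same in both genotypes, since the WT values were 8.76 in the 1 library with fibroblast-like cells and a mean of 8.46 in muscle or pericyte-like cells. The Gpt2 mean over all libraries was 12.9 ± 11.3 in mOBs and 6.97 ± 1.77 in dOBs, with mOBs higher in 5 of 8 libraries. Of these 5 libraries 4 were Het and 1 was WT. The WT mean of mOBs, 5.01, was below those of eOBs (8.33), dOBs (6.57) and unclassed cells (5.20). Got1, Got2 and Glul were each highest in haematopoietic-like cells, at 35.7 ± 13.0, 73.6 ± 18.2 and 126 ± 41.2. For Glul endothelial-like cells came next, with haematopoietic-like cells higher in 6 of 8 libraries. For Got2 the cell groups that followed did not separate, with endothelial-like cells above dOBs in 5 of 8 libraries and an order of means that differed between the genotypes. Glud1 did not separate between haematopoietic-like (227 ± 62.0, n = 8), fibroblast-like (221 ± 35.7, n = 3) and endothelial-like cells (220 ± 31.4, n = 8). Haematopoietic-like cells were above fibroblast-like cells in 0 of the 3 libraries with both. In WT alone Glud1 was 207 in haematopoietic-like cells, 261 in the 1 library with fibroblast-like cells and 214 in endothelial-like cells. The mean of Glul in mOBs, 12.2 ± 4.10, was below that of dOBs, the next group, in 8 of 8 libraries. That of Got2 in mOBs, 27.9 ± 5.74, was below that of chondrocyte-like cells, the next group, in 6 of 8 libraries, so these neighbours did not separate in every library.

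The marker classes were also fitted apart, an alternative added after seeing the data. The highest Asns value was in muscle or pericyte-like cells, a log2 fold change of 1.17 with an SE of 0.39 (edgeR adjusted p = 0.99995). In haematopoietic-like cells Gpt2 had 0.79 (edgeR adjusted p = 0.171) and Asns -0.24. Endothelial-like and chondrocyte-like cells had Asns values of 0.32 and -0.15. Fibroblast-like and erythroid-like cells were not fitted, since not every kit and genotype had a library with at least 10 such cells.

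**Figure D5:**
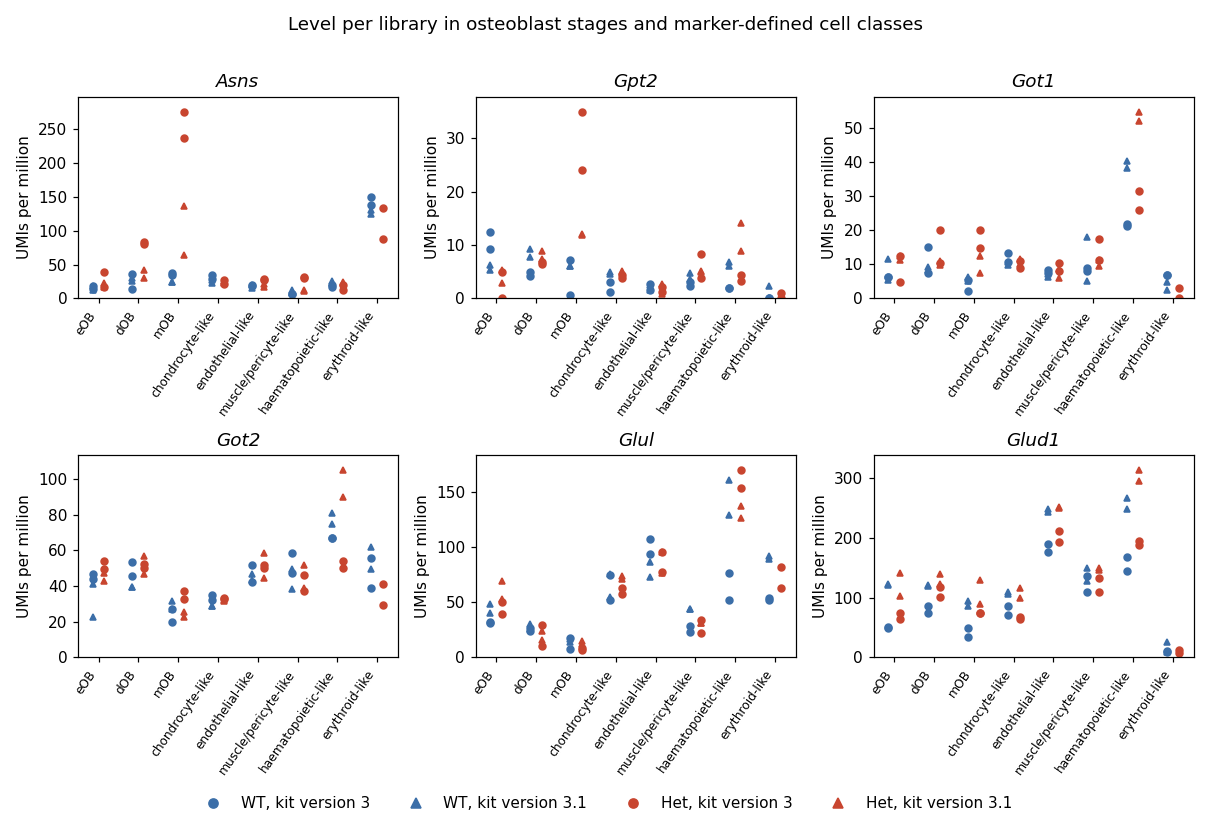
Level of each gene (UPM) in the OB stages and the marker classes, 1 point per library. Asns is highest in erythroid-like cells and Het mOBs, Gpt2 in Het mOBs, and Got1, Got2 and Glul in haematopoietic-like cells. For Glud1 haematopoietic-like and endothelial-like cells do not separate. The means of Glul and Got2 are lowest in mOBs.

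Around the members, 5 lists of related genes were followed in mOBs, where the median log2 fold change of all tested genes was 0.01. Of these 9623 genes 0.53% were called by edgeR, 1.35% were called by DESeq2 and 11.2%, or 1076, had an unadjusted p under 0.05, and the counts below stand beside these shares. Of 34 further enzymes of these amino acids 16 were tested and 0 called by edgeR, 3 had an unadjusted p under 0.05, DESeq2 called 1 (Psat1), and the median was 0.12. Nearest to the threshold were Psat1, which makes phosphoserine from glutamate and phosphohydroxypyruvate, with 1.52 (edgeR adjusted p = 0.0712), and Bcat1, the cytosolic branched-chain aminotransferase, with 0.72 (adjusted p = 0.148). Psat1 had a mean of 32.2 UPM in WT and 120 in Het mOBs. Of 9 genes of the malate-aspartate shuttle and of glutamate and pyruvate carriers 7 were tested, 0 called by edgeR or DESeq2 and 0 at an unadjusted p under 0.05, with a median of -0.01. In this list the pyruvate carrier Mpc1 had 0.25 and malate dehydrogenase Mdh2 0.21.

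The plasma membrane carriers of these amino acids held the most called genes. Of 17 listed 10 were tested, 4 were called, all higher in Het, 5 had an unadjusted p under 0.05, and the median was 0.57. DESeq2 called 5, the same 4 and Slc38a1. The 4 were Slc7a5 (log2 fold change 2.54), which carries large neutral amino acids, its partner chain Slc3a2 (1.13), the glutamine carrier Slc1a5 (1.70) and Slc1a4 (1.02), which carries alanine, serine and cysteine, with edgeR adjusted p values of 0.00144, 0.00637, 0.0238 and 0.0288. The levels of Slc7a5 were 6.85 ± 0.41 UPM in WT and 51.6 ± 28.5 in Het (SD, n = 4 each). Of 9 aminoacyl-tRNA synthetases for the same amino acids 8 were tested, with a median of 0.03. Of these 4 had an unadjusted p under 0.05, and edgeR called 1, Nars, the cytosolic asparaginyl-tRNA synthetase, with 0.84 (SE 0.13, edgeR adjusted p = 0.0179). DESeq2 called 2, Nars and Aars, the alanyl-tRNA synthetase. Of 9 transcription and ISR regulators 8 were tested, with a median of 0.20. In this list 3 had an unadjusted p under 0.05, and both edgeR and DESeq2 called 1, Atf5, an ISR transcription factor, with 2.03 (SE 0.21, edgeR adjusted p = 0.00144). In dOBs, eOBs and other cells 0 genes of the 5 lists were called by edgeR, while 11 of 48, 5 of 41 and 19 of 70 tested had an unadjusted p under 0.05, where the shares of all genes were 7.51%, 3.82% and 25.7%. DESeq2 called 0 in dOBs and eOBs and 3 higher and 4 lower in other cells, where it called 11.8% of all genes. These lists were compiled with results on these data known and are no independent evidence of direction.

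The genes whose pattern was most like that of a member were sought over the 32 sums of 4 cell groups in 8 libraries, after the mean of each kit was subtracted, among 6367 genes. The sums of a library share its preparation and depth, so these correlations are descriptions. For Asns they were Eif4ebp1 (Pearson r 0.92), an inhibitor of cap-dependent translation, and the mitochondrial one-carbon enzymes Mthfd2 (0.89) and Shmt2 (0.88). Those of Gpt2 were Dlgap4 (0.89), Phf10 (0.79) and Tmem241 (0.76), and those of Got1 were Glud1 (0.79), Adss (0.75) and Slc1a5 (0.72). For Got2 they were Txn1 (0.75), Snrpd1 (0.74) and Rangap1 (0.72). Glul was most like Sat1 (0.93), Pitpnc1 (0.91) and Arhgap17 (0.90), and among the genes most like Glud1 were Iqgap1 (0.90) and Adss (0.77). Among the members, Got1 and Glud1 had the highest r, 0.79. Asns had 0.55 with Gpt2, 0.52 with Got1 and -0.49 with Glul, which fell toward mOBs while Asns rose.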

How the data were processed

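The authors deposited raw, unnormalized UMI counts of genes in cells from Cell Ranger (5.0.0 for kit version 3 and 6.0.1 for version 3.1, per the labels and processing notes; build mm10). Cells had at least 500 genes and under 10% mitochondrial UMIs. Counts were summed per library and subpopulation (at least 10 cells) and tested with edgeR 4.0.16 (limma 3.58.1, R 4.3.3): filterByExpr, TMM, quasi-likelihood F test, kit version as covariate, Benjamini-Hochberg over all tested genes, calls at 0.05. The SE was the log2 fold change divided by the square root of F. DESeq2 1.42.0 was an alternative. Exact permutation tests were written in Python 3.11.15 with numpy 2.4.6, and scipy 1.17.1 held the count matrices. Doublets were kept, with alternatives without OBs carrying markers of other classes or cells nearest to simulated doublets (Scrublet in scanpy 1.11.5, 0.8% per 1000 cells). The study's text does not state its UMI limits for OBs, and those used here were rebuilt. Both fits were checked on simulated counts. Coordinates are from GENCODE M21 (GRCm38, equal to mm10), and upstream sequences from RefSeq.

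The 6 members, the 5 lists and the tests were chosen with earlier results of these data known. Members were always named. From each list up to 4 genes were named, those called in mOBs with the largest change, otherwise the 2 with the smallest p. The 3 genes most like each member were ranked by r among genes with a mean of at least 20 CPM in mOBs (log2 CPM, prior count 2). For Glud1 1 of them is not reported here. A marker class needed at least 3 detected markers of its own (3 UMIs each for chondrocyte markers) and under 3 of each other class. Libraries held 30480239 to 85162035 UMIs. PCR duplicates are removed by UMIs, and the upper limit given for Gpt2 in eOBs covers counting error only. Alternatives were other normalization, filters, stage limits, OB selection, mitochondrial limits, thinning, replicate blocks and each library left out.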

Additional observations from a re-analysis of the deposited data

Results flagged for a closer look

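Levels of Got1 in 2 sums stood apart from the other libraries of their group by Dixon's criterion. In dOBs the Het library S3 had 20.2 UPM, with a gap of 0.881 of the group's range. In eOBs the WT library S5 had 11.7 UPM, with a gap of 0.864. These values rested on 21 and 15 UMIs. With 48 groups of 4 libraries examined, chance gives about 1 in 20 such cases, so 2 are no more than that share.

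The Het effect on Asns differed between cell groups of the same libraries. It was larger in mOBs than in other cells by 2.79 on the log2 scale (edgeR adjusted p = 0.0188). The WT library S2 had 74.5 UPM of Asns in other cells, where erythroid-like cells, the class with the highest WT level of Asns, made up 30.1% of cells, and the part of this in the difference was not tested.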

How the results depend on the processing

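Asns stayed called in mOBs in all alternatives in which it was tested except the fit without the kit term (2.59, adjusted p = 0.99999). Without the kit term edgeR called 0 genes and 0 members in mOBs (254 genes at an unadjusted p under 0.05), against 51 and 1 with it. DESeq2 called 130 genes and 3 members, no low-count filter 536 and 4, no OBs with other markers 88 and 2, other stage limits 82 genes and thinning to 2000 UMIs 17, where Gpt2 and Got1 were not tested. In dOBs 1 gene became 4 with DESeq2, 269 with no filter (1 member, Asns), 2 with thinning, and 0 without the kit term. In eOBs 0 became 3 with DESeq2, 141 with no filter, 13 without OBs with other markers, and 1 with looser selection or thinning, and Glud1 reversed to -0.076 with stricter selection and -0.031 under 5% mitochondrial UMIs. In other cells 0 became 1947 with DESeq2, 89 with no filter and 249 with thinning. DESeq2 called 7, 2 and 150 genes for mOBs against dOBs, eOBs and other cells. The causes of these shifts were not tested.

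A replicate block by label number within kit gave 26 genes in mOBs with Asns still called, 0 in dOBs and 7 in other cells. Deviations of same-numbered libraries correlated by -0.0496 in kit version 3 and -0.0279 in version 3.1. With 2 libraries per genotype and kit the deviations mirror each other, so these values cannot decide whether the numbers pair the samples.

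The Got1 stage ratio turned to 0.00411 with a pseudocount of 100 UPM and 0.0847 without collagen UMIs, where that of Glud1 was 0.0158. The Asns dependence on Col1a1 without collagen UMIs was 1.22 (exact p = 0.0571), and over the other pseudocounts it was 0.743 to 1.32 and that of Gpt2 0.213 to 2.15. The Got1 share of mOBs differed by 0.606 points at 2000 UMIs and 10.9 points unthinned (exact p = 0.0571), and that of Got2 by 1.55 at 2000 UMIs.

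Leaving out 1 library gave 11 (without WT S2) to 166 (without Het S7) genes in mOBs and 1 to 2 members. The gene count was 19, 23, 16, 26 and 154 without S1, S3, S4, S6 and S8. It gave 0 to 2 genes in dOBs, 0 to 1 in eOBs, 0 to 6 for mOBs against dOBs (6 without S8), 0 to 22 against eOBs (22 without S7), and 0 (S1, S4) to 474 (S7) against other cells with 0 to 1 members, the latter with 10, 319, 87 and 71 genes without S3, S5, S6 and S8. The Asns dependence ranged from 1.12 to 1.46 (exact p 0.0286 to 0.0571, over the threshold without S3, S4, S5, S7 or S8) and that of Gpt2 from 0.88 to 1.26 (exact p 0.0286 to 0.0857, over it without any WT library). The share difference ranged from 24.6 to 40.4 points for Asns, 5.32 to 7.25 for Gpt2 and 3.25 to 5.54 for Got1, each with an exact p of 0.0571 without any 1 WT library. Values near 0 changed sign for the Got1 stage ratio (-0.11 to 0.067), the dependence of Got2 (-0.25 to 0.035) and Glul (-0.23 to 0.015), the Got2 share (-2.15 to 1.11), Got2 in mOBs (-0.069 to 0.23), Glud1 in other cells (-0.20 to 0.017) and Glul in mOBs against dOBs (-0.28 to 0.14). The Glud1 stage ratio ranged from -0.22 (without S4, exact p = 0.0469) to -0.13. Counts were low for Gpt2, with 1 and 8 UMIs in the mOBs of S2 and S8, and for Got1, with 9, 3 and 5 in those of S1, S2 and S8.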
